A study of Mus musculus with 6 samples.

Results

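The genes described here encode enzymes that make, use and break down arginine and the polyamines. They were a fixed list of 10 genes (Arg1, Arg2, Ass1, Asl, Oat, Odc1, Srm, Sms, Sat1 and Nos2) of the 47643 gene IDs counted in mouse salivary gland organoids (mSGOs). The list was drawn up with results of the day 7 against day 5 comparison known, so the values of the 10 genes in that comparison are given as a description, with their errors and without p-values. mSGOs were grown from submandibular salivary glands of 3 C57BL/6 female mice aged 8 to 12 weeks and were harvested after 5 or 7 days in culture. This gave 6 RNA libraries, 3 for each day. Every organoid was untreated and non-irradiated and was kept in Matrigel in WRY medium, a Wnt3a- and R-spondin1-conditioned medium with EGF, FGF2, insulin, dexamethasone and the kinase inhibitor Y27632. By the labels, which number the mice alike on both days, each mouse gave a library on each day. The main fit compared the days without a mouse term, and log2 ratios within mice are given beside it for some genes. The comparison addresses how these enzymes differ between younger and older organoids.

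Arginase splits arginine into ornithine and urea, and nitric oxide synthase competes with it for the same substrate. Ornithine has 2 further fates in the cell: ornithine aminotransferase sends it towards proline, and ornithine decarboxylase turns it into putrescine, the first polyamine, from which spermidine and spermine are built. Polyamines are known to be needed by dividing cells, and Odc1 is a textbook target of the transcription factor Myc. Arg1 is best known from the liver urea cycle and from macrophages, and it is also made by stratified epithelia.

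Promoter sequence was read for the members listed in the RefSeq promoter table (GRCm38.p6), which holds 5 of the 10, with 6 start sites. The motif searched was the E-box CACGTG, the 6-base site bound by Myc and Max, which reads the same on both strands. It is shown in capitals below, in the 250 bases before the start, for the members that hold it, and the window of Odc1 is shown because Odc1 is the member that starts polyamine synthesis. Each window is written 5′ to 3′ on the strand of the gene.
Odc1, chr12:17544623-17544872, plus strand: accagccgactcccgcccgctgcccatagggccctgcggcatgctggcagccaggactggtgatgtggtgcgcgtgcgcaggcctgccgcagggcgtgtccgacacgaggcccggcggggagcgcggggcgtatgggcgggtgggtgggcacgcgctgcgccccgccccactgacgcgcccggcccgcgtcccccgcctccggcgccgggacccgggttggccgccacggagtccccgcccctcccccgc
Ass1, chr2:31470020-31470269, plus strand: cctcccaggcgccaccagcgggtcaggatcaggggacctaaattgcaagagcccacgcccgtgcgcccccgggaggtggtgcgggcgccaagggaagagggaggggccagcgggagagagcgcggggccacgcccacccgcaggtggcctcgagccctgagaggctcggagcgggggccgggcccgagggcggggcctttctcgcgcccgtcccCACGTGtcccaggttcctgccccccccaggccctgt
Sms, second start site, chrX:157492288-157492537, minus strand: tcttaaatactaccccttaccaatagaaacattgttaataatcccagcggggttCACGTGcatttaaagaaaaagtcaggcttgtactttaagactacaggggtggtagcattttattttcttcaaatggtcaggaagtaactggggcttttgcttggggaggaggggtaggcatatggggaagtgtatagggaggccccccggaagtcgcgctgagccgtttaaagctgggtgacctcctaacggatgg
The E-box stood 36 bases before the start of Ass1 and 196 bases before the second start site of Sms. The windows of Odc1, Oat, Sat1 and the first start site of Sms did not hold these letters. Sequence outside the windows was not searched, so whether these genes hold an E-box elsewhere was not tested. Of 32851 mouse promoter windows of the same length, 1978 (6.02%) held an E-box, and a match describes the sequence only.

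The libraries were made with a 3′ mRNA kit (QuantSeq), so reads are counted near the 3′ end of each transcript. They held between 1918198 and 2837397 counts in genes, and levels are given as CPM, the counts scaled to a common library size by the TMM method. Absence of counts allows a level of up to 1.04 to 1.51 CPM, depending on the library, which is the limit set by 3 counts. Reads not assigned to a gene made up 13.7 to 14.4% of the day 5 libraries and 9.12 to 9.74% of the day 7 libraries. The reasons for this were not separated. Mitochondrial protein genes took 2.60 to 2.72% of the counts on day 5, and 2.26, 0.926 and 0.924% in mouse 1, 2 and 3 on day 7. The epithelial markers Epcam, Cdh1 and 6 keratins were present in every library. Of the 9 acinar and duct markers with a row in the files, 4 (Bpifa2, Lpo, Prol1 and Dcpp1) had no count. Bhlha15 and Smgc had at most 1 count in a library. Aqp5, Chrm3 and Slc12a2 had counts in every library, with means of 7.53, 7.78 and 53.4 CPM on day 5 and 14.9, 14.6 and 102 CPM on day 7. Of the 4 acinar and duct markers tested, 0 met the criteria for a call given below. Markers of squamous epithelium summed to 3247 to 4851 CPM on day 5 and 5571 to 8343 CPM on day 7. In the fit across all genes 8 of the 12 were higher, beside 7.22% of all genes tested. Krt6a, which was not among the 8 and overlapped between days, alone measured 2387 to 3744 CPM on day 5 and 3675 to 5098 CPM on day 7. Markers of cycling cells summed to 1714 to 1982 CPM on day 5 and 701 to 985 CPM on day 7. In the same fit 9 of the 10 were lower, beside 4.82% of all genes tested. The part of these shifts in the differences described here was not tested, and in bulk RNA fewer cells that express a gene and less of its RNA per cell cannot be told apart.

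Among the 10 genes, Arg1 went from a low to a high level, Odc1 and Srm were lower on day 7, 6 genes did not pass the criteria for a call, and Nos2 had no count. A gene was called when its adjusted p in edgeR was below 0.05 and its log2 fold change was over 0.6 in size. Across all genes, 15792 were tested and 12.0% were called, 7.22% higher and 4.82% lower on day 7. Of the 9 members tested, 3 were called, 1 higher and 2 lower. The day 5 and day 7 libraries did not overlap for 5 of the 9 (Arg1, Oat and Sms higher, Odc1 and Srm lower), against 30.9% of all genes tested. The median log2 fold change over the 9 was 0.51, from -1.01 to 6.49, beside -0.01 over all genes tested. Since this comparison chose the list, nothing is read from these shares.

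**Figure D1:**
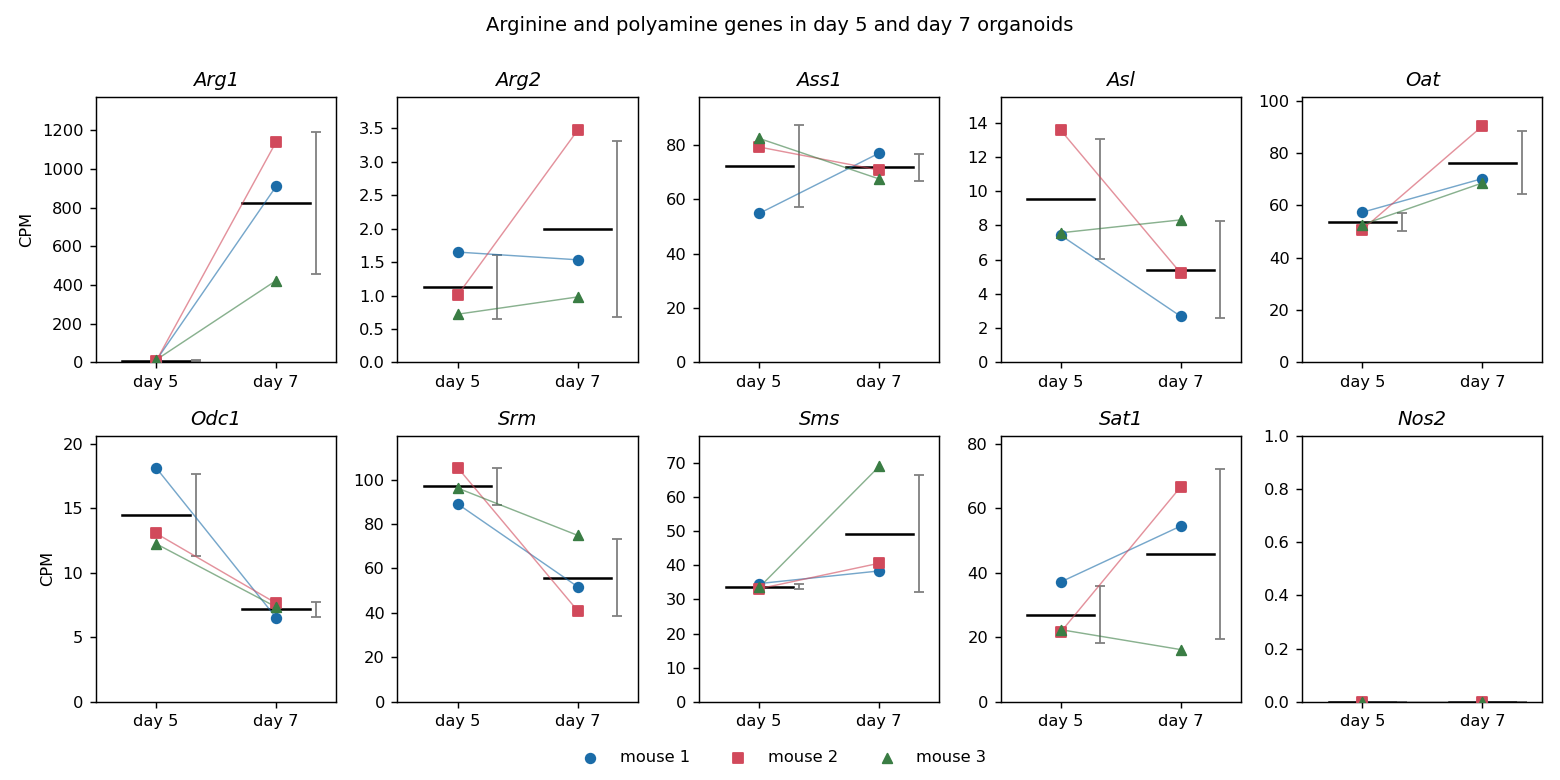
Level of the 10 arginine and polyamine genes in each library, in CPM on linear axes that start at 0 and differ between panels. Points are libraries with a line joining the day 5 and day 7 library of the same mouse, black lines are group means and grey bars are the SD (n = 3); Arg1 lay at 8.93 CPM on average on day 5 and at 824 CPM on day 7, and Nos2 had no count.

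Arg1, the cytosolic arginase (chr10:24791118-24803817, minus strand, GRCm39), was low on day 5 and well counted on day 7. On day 5 it measured 8.66, 5.52 and 12.6 CPM in organoids of mouse 1, 2 and 3. On day 7 it measured 909, 1139 and 423 CPM in the same order. The lowest day 7 library was thus far above the highest day 5 library, and the counts behind these levels were 67 on day 5 and 6516 on day 7. Mean Arg1 was 8.93 ± 3.55 CPM (SD, n = 3) on day 5 and 824 ± 366 CPM on day 7, a 92.2-fold difference of means. The fitted log2 fold change was 6.49 ± 0.38 (SE), and among the 6174 genes whose mean reached 20 CPM it ranked 15 from the largest increase. Arg1 reached that mean only through the day 7 libraries, and this comparison chose the list, so nothing is read from the rank. Taken within mice 1, 2 and 3, the log2 ratio of day 7 to day 5 was 6.71, 7.69 and 5.07. All animals therefore moved the same way, while the day 7 libraries differed from each other by 2.69-fold. The last 500 bases of Arg1 matched no other gene, and an exon of the gene Gm36172 overlaps it on the other strand. Whether reads were counted by strand is not given in the sources used here, so reads of these overlapping genes cannot be told apart. The Arg1 call held under each of the 17 alternatives tried.

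Arg2, the mitochondrial arginase, stayed near the floor of the assay. It measured 1.65, 1.00 and 0.721 CPM on day 5 and 1.53, 3.47 and 0.979 CPM on day 7, so the days overlapped. These levels rest on 8 counts on day 5 and 16 on day 7, and the log2 fold change was 0.87 ± 0.71, which the depth cannot separate from 0. Nos2, the inducible nitric oxide synthase, had 0 counts in all 6 libraries, which allows up to 1.51 CPM in the shallowest of them.

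Because Arg1 is a common marker of macrophages, genes that define these cells were read in the same libraries. Of 12 macrophage markers, 7 had no count in any library (Adgre1, Csf1r, Lyz2, Mrc1, C1qa, C1qb and Itgam). The 12 markers together summed to 8.03 to 10.7 CPM on day 5 and 9.30 to 13.9 CPM on day 7. Of the 2 with enough counts to test, the lysosomal gene Cd68 was called higher and Cd14 was not called. Mean Cd68 was 1.00 CPM on day 5 and 5.27 CPM on day 7 (2.36 ± 0.61), from 7 and 39 counts. Mean Cd14 was 8.13 and 5.65 CPM (-0.48 ± 0.40), so the sum joins markers that moved in opposite directions. Over all genes tested 7.22% were called higher.

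The genes whose pattern over the 6 libraries was most like that of Arg1 were Il33, Tnc, Alox15, Sprr2e and Plekhb2. Likeness was the Pearson correlation of log2 CPM over the 6 libraries among 6163 other named genes whose mean reached 20 CPM. It was 0.997 for Il33, Tnc, Alox15 and Sprr2e and 0.996 for Plekhb2. These values are a description, since the libraries fall into 2 sets by day and share mice. Il33, an epithelial alarmin of the interleukin-1 family, lay at 193, 196 and 237 CPM on day 5 and at 827, 953 and 647 CPM on day 7. Alox15, a lipoxygenase, lay at 0.825, 0.502 and 1.08 CPM on day 5 and at 130, 160 and 43.1 CPM on day 7. As with Arg1, both were highest in mouse 2 and lowest in mouse 3 among the day 7 libraries. The choice by correlation over these same libraries favours such a likeness, so it adds nothing to the correlation. Alox15 and Sprr2e reached the mean of 20 CPM only through the day 7 libraries. Tnc encodes the matrix protein tenascin-C and had a log2 fold change of 2.52 ± 0.25. Sprr2e, a cornified envelope precursor, had 7.59 ± 0.64.

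**Figure D2:**
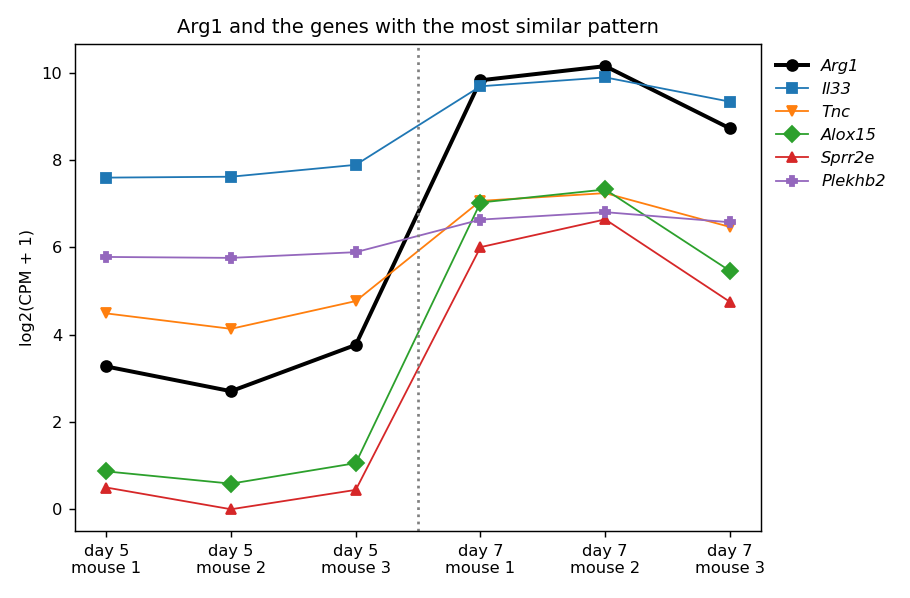
Arg1 and the 5 genes with the most similar pattern, as log2(CPM + 1) in each of the 6 libraries, with day 5 left and day 7 right of the dotted line. Each line is a gene. All 6 are higher on day 7, and on day 7 all are highest in mouse 2 and lowest in mouse 3. The choice of the 5 genes by likeness to Arg1 favours this pattern.

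Among the members whose day 7 mean reached 20 CPM, Oat and Sat1 had the same order of mice on day 7 as Arg1 (mouse 2, then mouse 1, then mouse 3), and Ass1, Srm and Sms did not. That order was shared by 3 of 8 squamous markers at this level (Krt13, Sprr1a and Cnfn), by 2 of 8 epithelial markers and by 0 of 9 cycling markers. The squamous markers Krt10, Krt6a, Sprr1b and Krtdap shared another order (mouse 1, then mouse 2, then mouse 3). The share of all genes with the order of Arg1 was not counted, so nothing is read from these counts. With 1 library per mouse and day, a mouse and its library cannot be told apart.

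The enzymes that rebuild arginine from citrulline showed no call. Ass1, argininosuccinate synthase, measured 54.9, 79.3 and 82.5 CPM on day 5 and 77.1, 70.8 and 67.6 CPM on day 7. Its days overlapped, its log2 fold change was -0.01 ± 0.21, and the sign turned in 6 of the 17 alternatives. The 3′ end of Ass1 shares a stretch of 380 bases with the gene Gm5424, which itself had 6 counts on day 5 and 1 on day 7. Asl, argininosuccinate lyase, measured 7.42, 13.6 and 7.57 CPM on day 5 and 2.68, 5.21 and 8.32 CPM on day 7, with a log2 fold change of -0.82 ± 0.42. It was lower in 2 of 3 mice and its days overlapped. The liver enzymes that complete the urea cycle, Cps1, Otc and Nags, had no count in any library, and the mitochondrial ornithine carrier Slc25a15 was not called (-0.29 ± 0.29).

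Oat, ornithine aminotransferase, stood higher in each day 7 library than in any day 5 library but was not called. It measured 57.3, 50.7 and 52.6 CPM on day 5 and 70.2, 90.3 and 68.5 CPM on day 7. Mean Oat was 53.5 ± 3.41 CPM on day 5 and 76.3 ± 12.1 CPM on day 7. The log2 fold change was 0.51 ± 0.20, and Oat missed both criteria of a call, the size and the adjusted p. No gene of ornithine and proline interconversion was called out of 6 tested, beside 12.0% of all genes tested. Pycr3, a pyrroline-5-carboxylate reductase (-0.44 ± 0.33), and Aldh4a1, which oxidises the same intermediate to glutamate (0.12 ± 0.29), were not called, and Aldh4a1 turned to -0.24 without the day 7 library of mouse 3.

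Of the 3 members that build polyamines, Odc1 and Srm were called lower and Sms was not called. Odc1, which makes putrescine, measured 18.1, 13.1 and 12.2 CPM on day 5 and 6.52, 7.64 and 7.34 CPM on day 7. Every day 7 library lay below every day 5 library, and the mean went from 14.5 ± 3.20 to 7.17 ± 0.579 CPM, 2.02-fold lower. The log2 fold change was -1.01 ± 0.31, and the log2 ratio within mice was -1.48, -0.77 and -0.74. The counts were small, 104 on day 5 and 54 on day 7. The Odc1 call was lost with DESeq2 (-1.02), with voom (-0.98) and on leaving out any single day 5 library or the day 7 library of mouse 1 or 2, with log2 fold changes between -0.82 and -1.12. The 3′ end of Odc1 also has 10 near copies of at least 200 bases elsewhere in the genome, 5 of them with an identical stretch. The 7 copies listed in the files held 2 counts on day 5 and 0 on day 7. How reads that match several places were treated is not given in the sources used here, so the level of Odc1 is uncertain.

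Srm, spermidine synthase, was the other member lower on day 7. It measured 89.1, 105 and 96.2 CPM on day 5 and 51.8, 41.0 and 74.9 CPM on day 7. The days did not overlap, and the mean went from 96.9 ± 8.20 to 55.9 ± 17.3 CPM, 1.73-fold lower, with a log2 fold change of -0.80 ± 0.23. Within mice 1, 2 and 3 the log2 ratio was -0.78, -1.36 and -0.36. All mice were lower on day 7, and mouse 2 moved the most. The call was lost without any single day 5 library (-0.86, -0.73 and -0.80 without mouse 1, 2 and 3) and without the day 7 library of mouse 2 (-0.62). A stretch of up to 180 bases at its 3′ end matched 85 other genes.

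Sms, spermine synthase, and Sat1 were not called, and in each 1 library stood apart on day 7. Sms was even on day 5, at 34.6, 33.1 and 33.5 CPM, and measured 38.4, 40.6 and 69.0 CPM on day 7. All mice were higher on day 7, mouse 3 by the most, and the log2 fold change was 0.54 ± 0.25. Sms has 8 near copies, and the 6 listed in the files held 0 counts on day 5 and 2 on day 7. Sat1, spermidine/spermine N1-acetyltransferase, starts the breakdown and export of polyamines, and it measured 37.1, 21.6 and 22.3 CPM on day 5 and 54.5, 66.7 and 16.2 CPM on day 7. It was higher in mouse 1 and 2 and lower in mouse 3, and its day 7 libraries spanned 4.13-fold. Its log2 fold change was 0.77 ± 0.36. Sat1 has 2 near copies over up to 309 bases, and the 1 among the counted gene IDs held 0 counts on both days. An exon of 1 other gene overlaps Sat1 on the same strand. Sat1 was called without the day 7 library of mouse 3 (1.16) and with no filter on low counts, and its log2 fold change was 0.40 without the day 7 library of mouse 2.

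**Figure D3:**
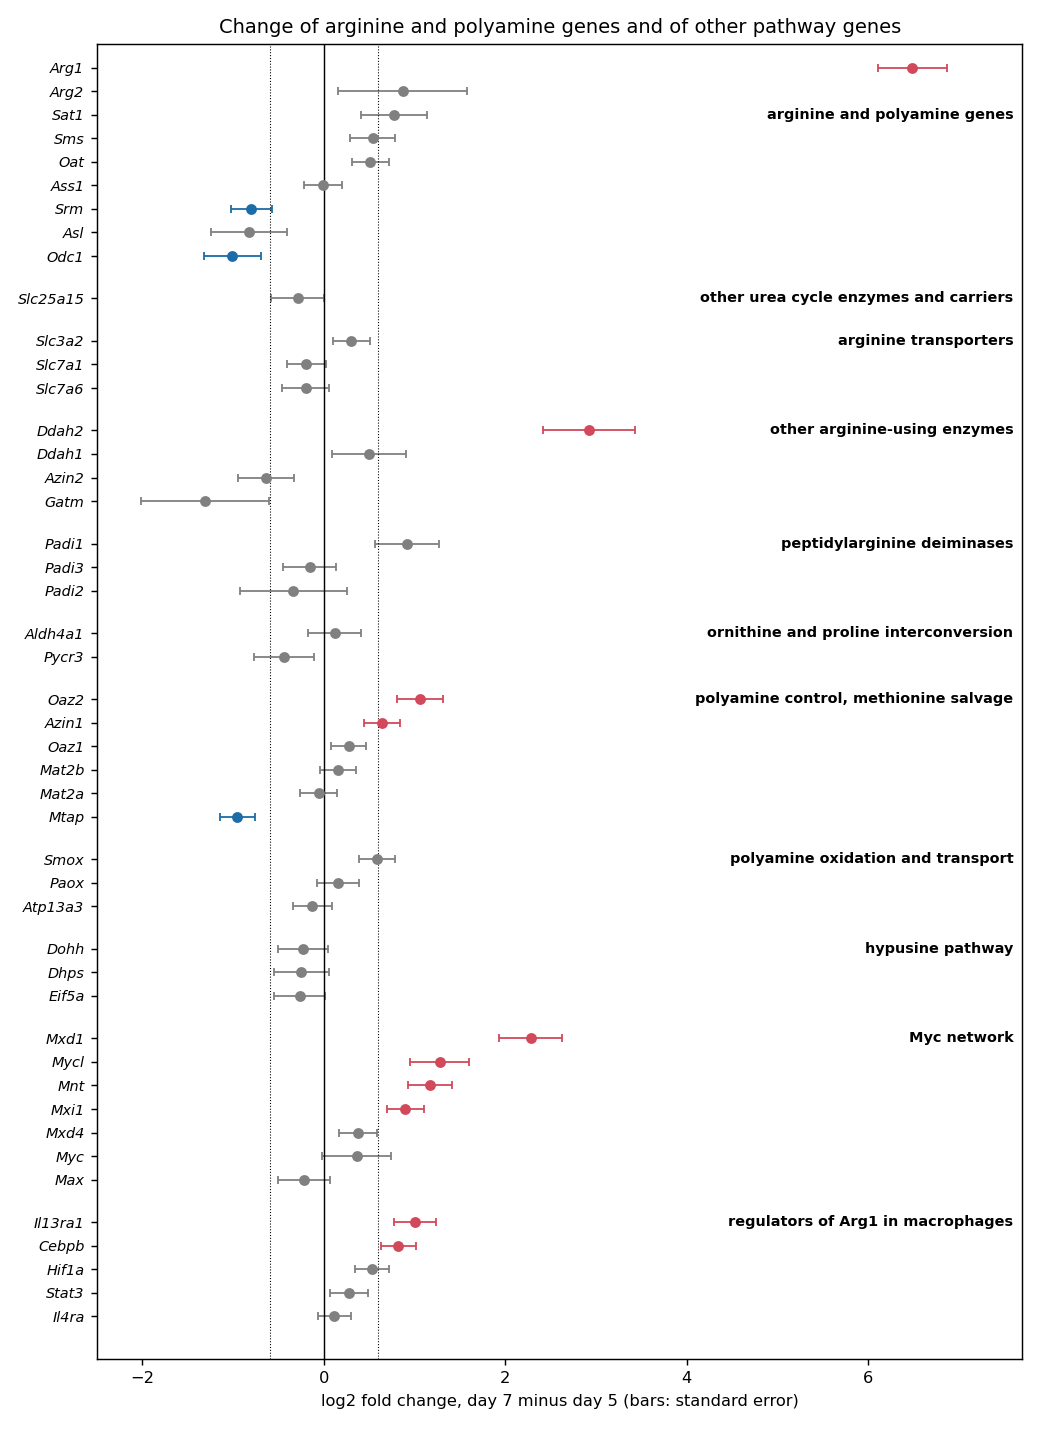
Fitted log2 fold change, day 7 minus day 5, of the arginine and polyamine genes and of the other pathway genes named in the text with at least 20 counts and a count on both days, grouped by list and without Amd1. Points are estimates and bars are SE (6 libraries); red is called higher, blue is called lower, grey is not called, and dotted lines mark a size of 0.6. Arg1, at 6.49, stands to the right of all other genes shown, while Odc1, Srm and Mtap are the genes called lower.

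The genes around the members were described from 10 lists of 72 genes, of which 63 were tested and 6 had no count in any library. Of the 63, 10 were called higher and 1 lower, beside 7.22% and 4.82% of all genes tested. The median log2 fold change of the 63 was -0.06, or 0.0 with genes absent on a day set at their bound. Like the members, the lists were chosen with earlier results of these data known, so nothing is read from these shares. For the same reason, the adjusted p-values given for genes of the lists are a description. Under glmTreat, which tests against the minimum size of 0.6 instead of 0, Odc1 and Srm and 8 of these 11 genes lost their call, and Ddah2, Slc6a14 and Mxd1 were still called. Of the 11 calls, 9 fell in 3 lists, the control of polyamine synthesis, the Myc network and the regulators of Arg1.

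Control of polyamine synthesis and methionine salvage had 3 of 12 genes called, 2 higher and 1 lower. Over all genes tested 7.22% were called higher and 4.82% lower, and nothing is read from the share in a list chosen with results known. Mtap, which recycles the methylthioadenosine left over from spermidine and spermine synthesis, measured 387, 311 and 364 CPM on day 5 and 189, 154 and 206 CPM on day 7. Mtap fell in all mice, by 0.95 ± 0.19 on the log2 scale (edgeR adjusted p = 0.00282), and the call held on leaving out any single library. Oaz2, an antizyme, belongs to a family of proteins that bind and inhibit ornithine decarboxylase, and it measured 42.9, 44.2 and 54.8 CPM on day 5 and 68.3, 84.7 and 144 CPM on day 7. Oaz2 rose in all mice (1.06 ± 0.25, edgeR adjusted p = 0.00959), and the call was lost without the day 5 library of mouse 1 (0.99) or mouse 2 (1.02). Its 3′ end matches 2 other genes over up to 395 bases, so part of its reads could belong to them. Azin1, the inhibitor of the antizymes, measured 70.5, 76.3 and 63.1 CPM on day 5 and 92.4, 124 and 110 CPM on day 7. Its rise of 0.64 ± 0.20 (edgeR adjusted p = 0.0425) lay close to the threshold, and the call was lost with upper quartile scaling (0.60), with scaling by library totals (0.55) and without any single day 5 library or the day 7 library of mouse 2 (0.53 to 0.70). Both an antizyme and the antizyme inhibitor were thus called higher. Oaz1, the main antizyme (0.27 ± 0.20), and the methionine adenosyltransferase genes Mat2a (-0.06 ± 0.21) and Mat2b (0.16 ± 0.20) were not called. Amd1, which makes the aminopropyl donor used by Srm and Sms and was picked for this role after its values were seen, measured 47.8, 53.7 and 62.7 CPM on day 5 and 31.8, 48.6 and 23.5 CPM on day 7 (-0.65 ± 0.25, edgeR adjusted p = 0.106).

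No gene of polyamine oxidation and transport was called out of 7, beside 12.0% of all genes tested. Smox, spermine oxidase, measured 55.7, 54.2 and 59.8 CPM on day 5 and 94.7, 84.7 and 74.9 CPM on day 7. Its days did not overlap, but its log2 fold change of 0.58 ± 0.20 (edgeR adjusted p = 0.0611) did not pass, and it was called without the day 7 library of mouse 3 (0.66). Paox (0.15 ± 0.23) and the polyamine transporter Atp13a3 (-0.13 ± 0.21) were not called.

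**Figure D4:**
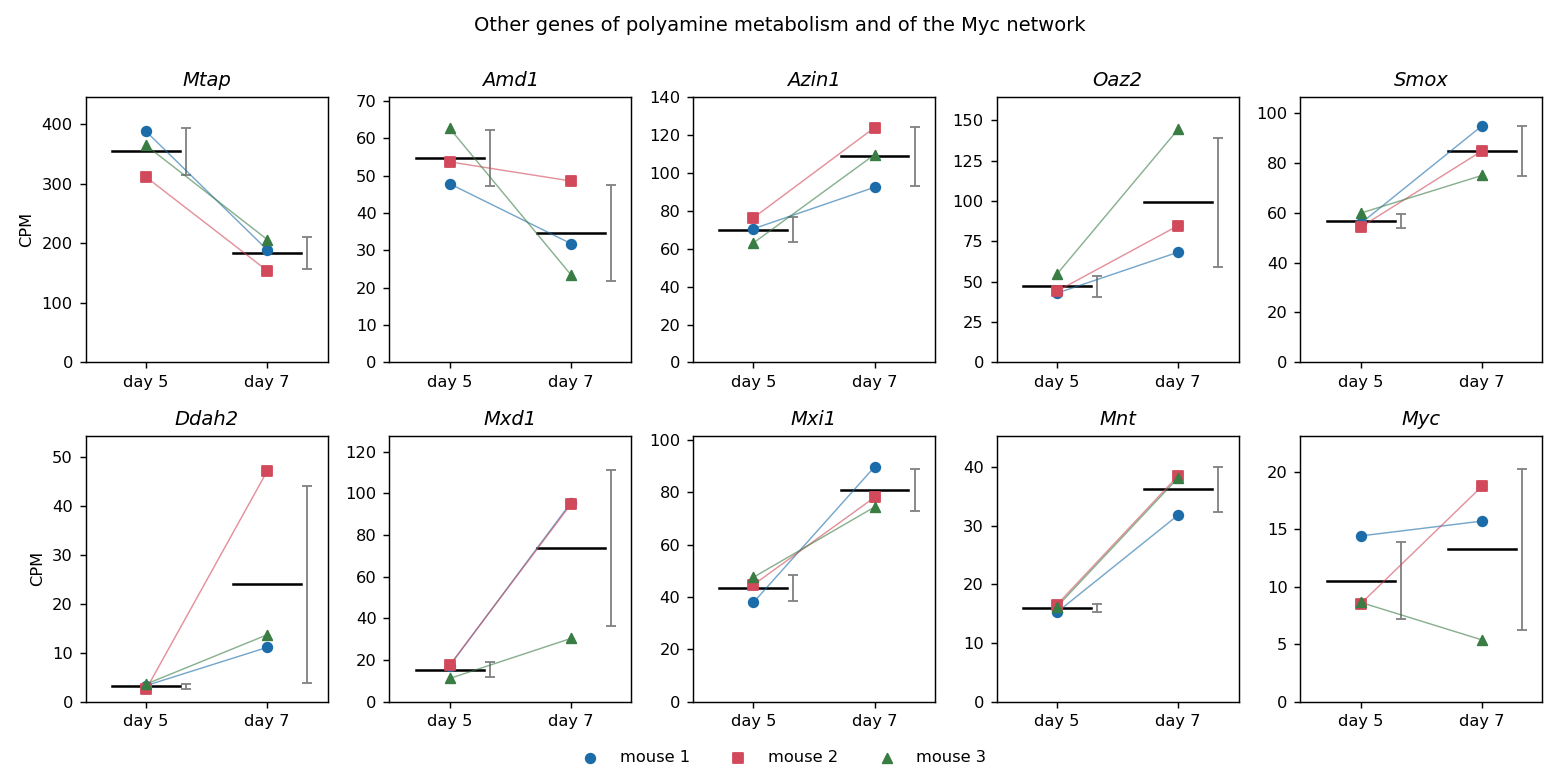
Level of 10 other genes of polyamine metabolism, arginine use and the Myc network in each library, in CPM on linear axes that start at 0 and differ between panels. Points are libraries joined by mouse, black lines are means and grey bars are the SD (n = 3); Mtap is lower on day 7 in all mice, and Oaz2, Ddah2, Mxd1, Mxi1 and Mnt are higher in all mice, whereas Myc overlaps between days.

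Of the genes that carry arginine, 1 of 8 tested was called, beside 12.0% of all genes tested. The main cationic amino acid transporter Slc7a1 measured 160, 171 and 161 CPM on day 5 and 194, 115 and 120 CPM on day 7 (-0.19 ± 0.21), and Slc3a2, the heavy chain with which other carriers pair, was likewise not called (0.30 ± 0.20). Slc7a6 was not called either (-0.20 ± 0.26). Slc6a14, a broad transporter of neutral and cationic amino acids, had no count on day 5 and 4.22, 5.21 and 0.490 CPM on day 7, from 27 counts. Set against the limit of 3 counts per library on day 5, it was at least 2.59-fold higher (edgeR adjusted p = 0.00734). Without the day 7 library of mouse 2 this bound was 1.85-fold and the call was lost (edgeR adjusted p = 0.0584).

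In a list of other genes of arginine use and related steps, 1 of 6 tested was called, beside 12.0% of all genes tested. Ddah2, which clears the methylarginines that inhibit nitric oxide synthase, measured 3.30, 2.51 and 3.60 CPM on day 5 and 11.1, 47.2 and 13.7 CPM on day 7. Ddah2 rose in all mice (2.92 ± 0.51, edgeR adjusted p = 0.000907), most in mouse 2, and without that day 7 library the log2 fold change was 1.94 and the call held. Ddah1 (0.50 ± 0.41), the antizyme inhibitor Azin2 (-0.64 ± 0.31) and Gatm (-1.32 ± 0.71), which uses arginine to start creatine synthesis, were not called. The 3′ end of Azin2 matched 298 other genes over up to 399 bases.

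The Myc network, which binds the E-box, had 4 of 7 genes called, all higher, beside 7.22% of all genes tested. This list was chosen with earlier results known, so nothing is read from the share. Myc itself was low and did not pass, with 14.4, 8.54 and 8.65 CPM on day 5 and 15.7, 18.7 and 5.38 CPM on day 7 (0.36 ± 0.38). Its partner Max was not called (-0.22 ± 0.29). Mxd1, which pairs with Max and represses E-box genes, measured 17.3, 17.6 and 11.2 CPM on day 5 and 95.5, 94.8 and 30.4 CPM on day 7. Mxd1 rose in all mice, by 2.28 ± 0.35 on the log2 scale (edgeR adjusted p = 0.000312). The other repressor partners Mnt (1.17 ± 0.24, edgeR adjusted p = 0.00344) and Mxi1 (0.90 ± 0.20, edgeR adjusted p = 0.00702) also rose. The activating family member Mycl rose by 1.28 ± 0.32 (edgeR adjusted p = 0.0135), and Mxd4 was not called (0.38 ± 0.21). The members that moved thus included both repressor and activator genes. The Mxi1 call was lost without the day 5 library of mouse 1 (0.80) or mouse 2 (0.92), and the Mycl call without the day 5 library of mouse 2 (1.11) or mouse 3 (1.23) or the day 7 library of mouse 2 (0.86).

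Of 6 genes known to regulate Arg1 in macrophages, 2 were called higher, beside 7.22% of all genes tested. Nothing is read from this share, since the list was chosen with earlier results known. Il13ra1, a receptor chain for interleukin-13, measured 27.2, 27.1 and 29.9 CPM on day 5 and 58.3, 67.7 and 43.1 CPM on day 7 (1.01 ± 0.23, edgeR adjusted p = 0.00700). Cebpb, a transcription factor that binds the Arg1 enhancer, measured 110, 95.9 and 99.4 CPM on day 5 and 158, 210 and 170 CPM on day 7 (0.82 ± 0.19, edgeR adjusted p = 0.00820). Both were higher on day 7 in all mice. The Il13ra1 call was lost without the day 5 library of mouse 1 (0.98) or mouse 2 (0.98) or the day 7 library of mouse 2 (0.85), and the Cebpb call without the day 5 library of mouse 2 (0.78) or mouse 3 (0.80). The interleukin-4 receptor Il4ra (0.12 ± 0.19), Stat3 (0.28 ± 0.21) and Hif1a (0.53 ± 0.19, edgeR adjusted p = 0.0798) were not called, and Hif1a was called without the day 7 library of mouse 3 (0.61).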

How the data were processed

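Libraries were made with the Lexogen QuantSeq 3′ mRNA kit from total RNA of 6 organoid samples (3 mice on day 5 and day 7). The deposited values are counts of reads per Ensembl gene ID, made by the authors on GRCm39; the aligner, counter, strand setting and annotation release are not given in the sources used here. Of 47643 IDs, 43465 were named with GENCODE vM39, and the summary rows that name no gene were left out. Together these rows held 13.7 to 14.4% of reads on day 5 and 9.12 to 9.74% on day 7. After dropping genes counted (minimum 1 read) in fewer than 2 libraries, the rest were tested with edgeR 4.0.16 (R 4.3.3), with TMM scaling, the quasi-likelihood F test on day, two-sided, and Benjamini-Hochberg adjustment over 15792 genes. SE is the log2 fold change divided by the square root of F. CPM uses TMM-scaled library sizes, and intervals or floors cover counting error only. The members and gene lists were chosen with earlier results of these data known. Genes named were all members, the called genes of each list (up to 5), the 3 uncalled genes of each list with the highest mean CPM, and the 5 genes most like Arg1 or Odc1; any other is said to have been picked later, and 1 gene under this rule is not reported here.

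Same-numbered libraries were taken to come from the same mouse, because the labels number the mice alike on both days. Their deviations from the day means correlated at 0.14, -0.10 and 0.16 over 8172 genes, and a fit that adds the mouse as a block was run as an alternative. Others were scaling, filters, DESeq2 1.42.0, glmTreat, robust dispersions, voom (limma 3.58.1) and leaving out each library. Libraries of the same day all differed by more than sampling noise (chi-square divided by its degrees of freedom 1.99 to 3.24 on day 5 and 12.3 to 19.9 on day 7). The fit was tested on simulated data. The last 500 bases of each named gene were compared with GENCODE vM39 transcripts by BLAST 2.17.0 (at least 95% identity over at least 50 bases). Long matches to other genes were also found for Oaz1, Dohh, Paox, Mat2a and Aldh4a1 (up to 508, 500, 377, 308 and 299 bases). Promoters come from RefSeq (GRCm38.p6).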

Additional observations from a re-analysis of the deposited data

How the results depend on the processing

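The call of Arg1 and the directions of the other 7 members tested apart from Ass1 held under every one of the 17 alternatives in which they were tested. The test against a minimum fold (glmTreat) called 622 of all genes, 1 member (Arg1) and 3 pathway genes, against 1901, 3 and 11. Leaving out 1 library gave 797 to 2576 calls over all genes, 1 to 4 members and 5 to 15 pathway genes. Over all genes, calls were 892, 797 and 890 without the day 5 library of mouse 1, 2 and 3 and 1045 without the day 7 library of mouse 2. Members called were 1 without each of these 4 libraries, and pathway calls were 7 and 5 without the day 5 library of mouse 1 and 2. With the mouse as a replicate block, 2340 genes, 3 members and 14 pathway genes were called, and of the genes named here only Cntln (-0.67) and Nol11 (-0.63) changed their call. Scaling by library totals shifted the median of all genes from -0.01 to -0.10 and gave 950 higher and 1008 lower calls, against 1140 and 761.

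Signs turned only for genes that were not called. Ass1 had 0.015 with voom, 0.010 with the block and -0.18 to 0.10 on leaving out 1 library, above 0 without the day 5 or day 7 library of mouse 2 or 3. Leaving out 1 library gave ranges across 0 for Mat2a (-0.19 to 0.13) and Paox (-0.050 to 0.26), which turned without the day 7 library of mouse 1. The same held for Aldh4a1 (-0.24 to 0.30), Eif5a (-0.79 to 0.023), Max (-0.51 to 0.13) and Slc25a2 (-0.60 to 0.46), which turned without that of mouse 3, and Slc25a2 also without that of mouse 2. Atp13a3 (-0.26 to 0.046) turned without the day 5 library of mouse 1. The causes were not tested. At this depth, a difference of Arg2, with 8 and 16 counts, or of Nos2, with 0, was not detectable.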

Other observations

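The peptidylarginine deiminases, which turn arginine of proteins into citrulline in stratified epithelia and other tissues, had 0 of 5 genes called. In this fit 12.0% of all genes tested were called. Padi1 measured 5.77, 7.53 and 7.93 CPM on day 5 and 9.59, 11.1 and 20.1 CPM on day 7 (log2 fold change 0.91 ± 0.35, edgeR adjusted p = 0.102), and it was called without the day 7 library of mouse 1 (1.11). Padi3 (-0.16 ± 0.29) and Padi2 (-0.34 ± 0.59) overlapped between days. The hypusine pathway, in which spermidine is used to modify the translation factor Eif5a, had 0 of 4 genes called. Eif5a measured 203, 180 and 164 CPM on day 5 and 242, 128 and 81.8 CPM on day 7 (-0.27 ± 0.28). It was called lower without the day 7 library of mouse 1 (-0.79) and had 0.023 without that of mouse 3. The 3′ end of Eif5a matched 3 other genes over up to 434 bases. The enzymes Dhps (-0.25 ± 0.31) and Dohh (-0.23 ± 0.28), which carry out the modification, were not called.

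The genes most like Odc1 over the 6 libraries were Akap9, Cntln, Otud6b, Nol11 and Psmd14, with Pearson correlations of 0.993, 0.993, 0.988, 0.985 and 0.982 among 6164 genes, given as a description over libraries that fall into 2 sets by day. Otud6b, a deubiquitinase, lay at 128, 111 and 99.8 CPM on day 5 and at 58.7, 62.5 and 62.2 CPM on day 7, with a log2 fold change of -0.89 ± 0.19 (SE), given without a test because its likeness to Odc1 chose it.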
